A study of Mus musculus with 12 samples.

Results

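The skeletal muscle fibre genes are 36 genes that build or fuel the striated muscle fibre, chosen by symbol from the 24197 genes of the count table: the adult myosin heavy and light chains, the troponins, the myosin binding proteins C, the thin filament, the Z disc with titin and desmin, the calcium handling proteins and a few muscle enzymes. All 36 were in the table and all 36 passed the filter on low counts. They were measured by RNA sequencing of brown fat, the tissue that makes heat, in 12 libraries of 4 groups with 3 libraries each. The mutant mice were Adipoq-Cre+; Ebf2 fl/fl after 1 week at 4 °C (cold) or at room temperature (RT), and their controls were Adipoq-Cre-; Ebf2 fl/fl mice held the same way. All mice were 8 to 10 weeks old and all carried the floxed Ebf2 alleles. Ebf2 is a transcription factor of brown fat cells, and the Adipoq promoter drives Cre in adipocytes and not in muscle fibres. Mutant and control stand below for the libraries so labelled, and replicates carry the numbers 1, 2 and 3 of the labels.

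A muscle fibre contracts when calcium, released from the sarcoplasmic reticulum, binds troponin on the thin filament and lets myosin heads of the thick filament pull on actin. Fast fibres and slow fibres use different genes for the same part, so that Myh4, Myh1 and Myh2 encode the fast heavy chains of type IIb, IIx and IIa fibres and Myh7 the slow heavy chain of type I fibres. Interscapular brown fat lies against muscle of the back and shoulder, and brown adipocytes and muscle share a Myf5-expressing embryonic lineage. In bulk tissue, fewer cells of a type and less RNA per cell cannot be told apart.

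Total counts were 25835650 to 37927038 per library, so that 3 counts, the limit a count of 0 allows, were worth 0.0791 to 0.116 CPM (counts as a rate per library total, scaled by TMM). Summed CPM of 10 brown adipocyte markers was 19360.5 to 33490.0 in every library, and that of 9 heart muscle markers at most 19.1, with the natriuretic peptide gene Nppb at 0 in all 12. The targeted gene, Ebf2, had 28.7, 21.6 and 27 CPM in mutants and 52.3, 42.2 and 41.6 CPM in controls in the cold, and 65.2, 45.7 and 38.3 CPM in mutants and 47.4, 64.1 and 32.0 CPM in controls at room temperature. The mutant libraries at room temperature thus had no lower Ebf2 level than the controls there, where the log2 difference was 0.06 ± 0.25 (SE, edgeR adjusted p = 0.931), and the groups did not overlap in the cold (log2 difference -0.82 ± 0.25, adjusted p = 0.153). The region deleted by Cre was not examined. Of 13 eye lens markers, 12 were called lower in mutants at room temperature, where 6.24% of all tested genes were called (edgeR). The 13 summed to 1.01 to 2.79 CPM in those mutants against 146 to 671 CPM in controls. In the cold they summed to 103 to 163 CPM in mutants and 149 to 191 CPM in controls, with 0 called between the genotypes. The part of other tissue in the muscle values was not tested.

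The promoters of 3 fibre genes that followed each other across the libraries are shown, one each for skeletal actin (Acta1), muscle creatine kinase (Ckm) and the fast heavy chain Myh4. They run from 250 bases before to 50 bases after the gene start in RefSeq, build GRCm38.p6, at chr8:123894726-123895025 on the minus strand, chr7:19410844-19411143 on the plus strand and chr11:67237562-67237861 on the plus strand, 5′ to 3′. Capitals mark the E-box CAGCTG, the TATA box TATAAA, the MEF2 motif and the CArG box, searched on both strands; these are the motifs of the MyoD family, of the basal machinery, of MEF2 and of serum response factor.
Acta1: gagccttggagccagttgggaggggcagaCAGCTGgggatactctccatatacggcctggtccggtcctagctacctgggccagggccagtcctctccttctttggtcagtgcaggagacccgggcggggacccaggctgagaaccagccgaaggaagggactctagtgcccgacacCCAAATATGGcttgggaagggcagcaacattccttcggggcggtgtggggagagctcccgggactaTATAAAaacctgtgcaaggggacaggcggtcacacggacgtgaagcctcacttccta
Ckm: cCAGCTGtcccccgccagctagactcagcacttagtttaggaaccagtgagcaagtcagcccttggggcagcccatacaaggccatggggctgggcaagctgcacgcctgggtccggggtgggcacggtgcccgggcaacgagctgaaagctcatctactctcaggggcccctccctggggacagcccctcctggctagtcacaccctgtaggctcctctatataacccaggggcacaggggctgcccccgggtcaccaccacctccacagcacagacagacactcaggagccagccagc
Myh4: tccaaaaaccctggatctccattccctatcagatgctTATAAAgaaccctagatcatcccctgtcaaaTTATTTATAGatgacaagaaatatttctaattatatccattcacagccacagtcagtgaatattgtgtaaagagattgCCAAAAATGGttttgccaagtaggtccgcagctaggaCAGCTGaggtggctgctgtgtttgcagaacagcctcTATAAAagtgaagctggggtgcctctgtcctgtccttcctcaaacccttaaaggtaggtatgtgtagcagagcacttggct
RefSeq held a promoter for 29 of the 36 genes. CAGCTG was in 15 of the 29 (51.7%), against 16.1% of all 27025 promoters. The MEF2 motif was in 4 of 29 (13.8%), those of Ttn, Myh1, Myh4 and Pvalb, against 3.26% of all promoters, and in Myh4 it overlaps a TATAAA on the other strand. The CArG box was in 3 (10.3%), those of Acta1, Myl3 and Myh4, against 1.57%. TATAAA was in 6 (20.7%) against 14.2%, and the GC stretch GGGCGG in 11 (37.9%) against 35.9%. A match describes the letters in this window only.

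The 36 genes took very different shares of the libraries, with a wide spread inside each group. Without Car3, which is described apart, the other 35 genes took 0.0368, 0.0601 and 0.832% of all counts in mutants and 0.348, 0.0435 and 1.30% in controls in the cold. At room temperature they took 0.190, 0.0191 and 2.59% in mutants and 4.03, 0.0313 and 2.83% in controls. Each group held a library with little muscle RNA and a library with much, and all 4 groups overlapped. Of the 35 genes, 28 were highest in control RT library 1 and 7 in mutant RT library 3. Replicate 2 was the lowest library in 3 of the 4 groups and replicate 3 was among the 2 highest in all 4; the labels do not say whether a number marks a shared day or dissection.

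**Figure D1:**
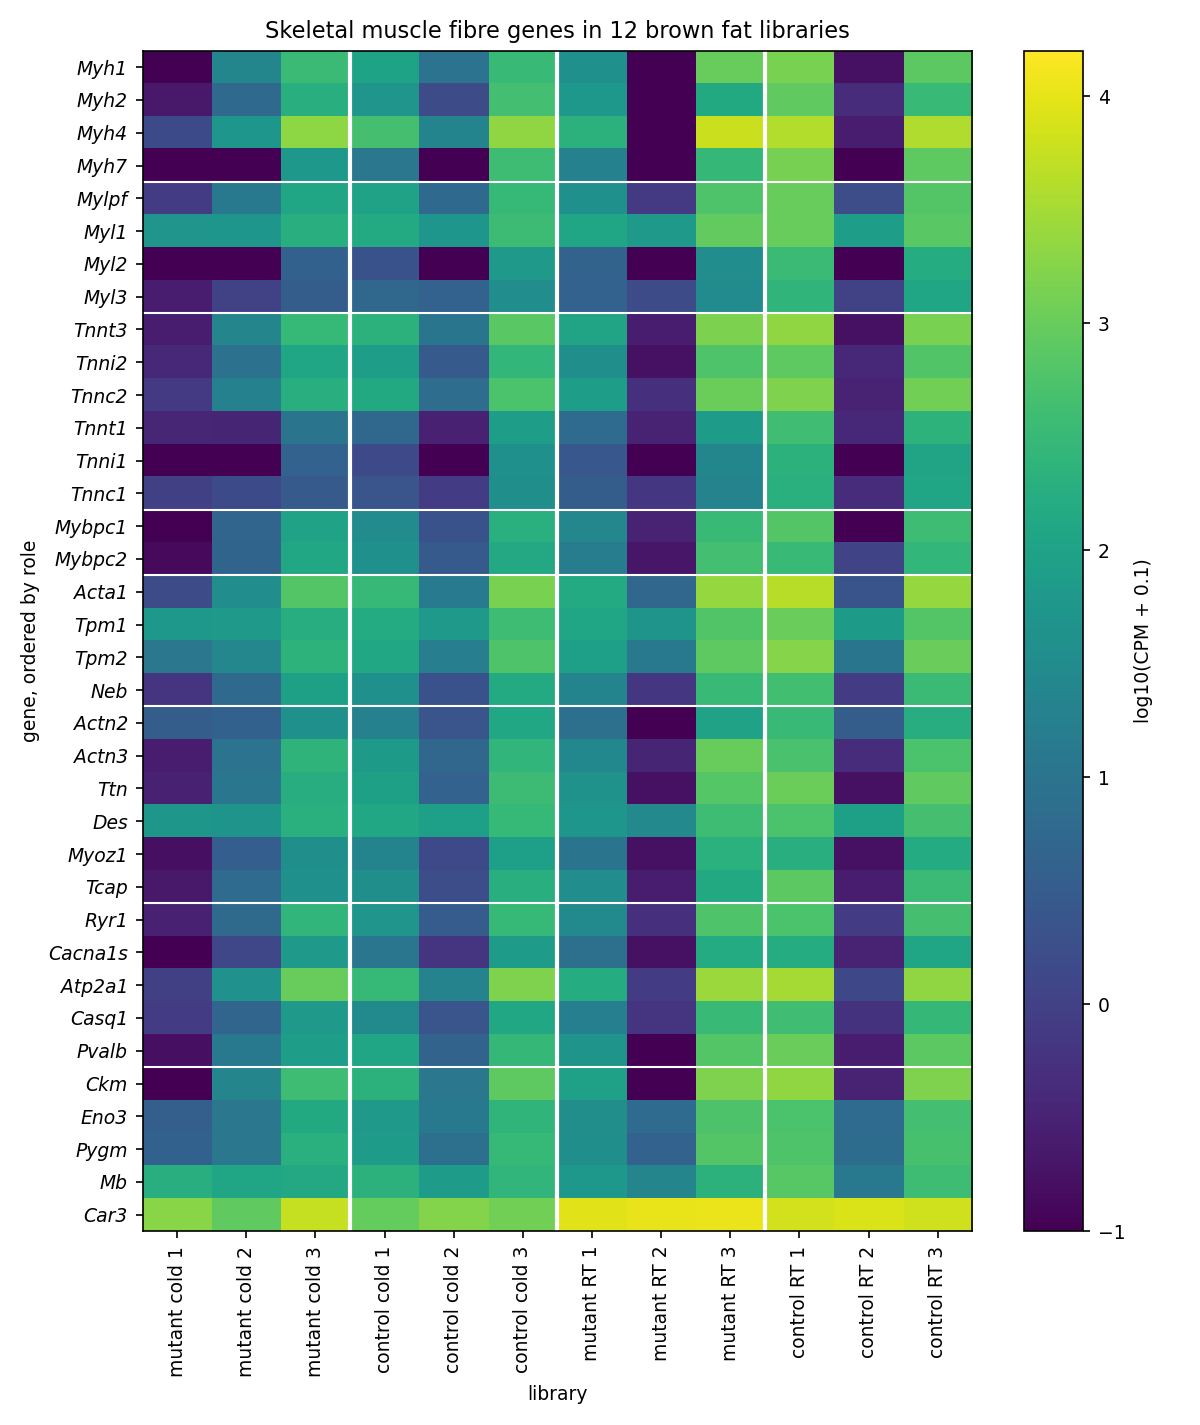
Level of each of the 36 genes (rows, by role) in each library (columns) as log10(CPM + 0.1), with white lines between groups and roles. Mutant RT 2, control RT 2 and mutant cold 1 are dark for nearly every gene, while Car3, Myl1, Tpm1 and Des stay visible in all 12 libraries.

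Among the heavy chains, the fast type IIb gene Myh4 had the highest mean level per kilobase. Myh4 had 1.37, 54.2 and 2096 CPM in mutants and 458, 22.0 and 2215 CPM in controls in the cold, and 215, 0 and 6104 CPM in mutants and 4079, 0.145 and 3836 CPM in controls at room temperature. Each of the 4 groups held a library at 2096 CPM or more and one at 22.0 CPM or less. The type IIx chain Myh1 had 0, 24.3 and 344 CPM in mutants and 106, 9.48 and 318 CPM in controls in the cold, and 41.1, 0 and 977 CPM in mutants and 1405, 0.0726 and 758 CPM in controls at room temperature. The type IIa chain Myh2 had 0.130, 5.86 and 182 CPM in mutants and 51.5, 1.45 and 440 CPM in controls in the cold, and 58.6, 0 and 145 CPM in mutants and 864, 0.363 and 335 CPM in controls at room temperature. The highest Myh2 library was control RT 1, which was not the highest for Myh4. The slow chain Myh7 had 0, 0 and 59.1 CPM in mutants and 11.6, 0 and 393 CPM in controls in the cold, and 18.8, 0 and 293 CPM in mutants and 1364, 0 and 796 CPM in controls at room temperature. Myh7 was at 0 in 5 of the 12 libraries.

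The make-up of the heavy chains was compared in the 9 libraries with at least 500 counts over the 4 genes; mutant RT 2 had 0 such counts, control RT 2 had 16 and mutant cold 1 had 46. Myh4 took the largest share in all 9, with 64.3 and 78.2% in mutant cold libraries 2 and 3 and 73.0, 66.8 and 65.8% in control cold libraries 1, 2 and 3. At room temperature it took 64.5 and 81.2% in mutant libraries 1 and 3 and 52.9 and 67.0% in control libraries 1 and 3. Type IIb chains thus led in libraries with few and with many heavy chain counts. The slow chain differed far more. Myh7 took 5.62% (5.24 to 6.03) and 3.90% (3.82 to 3.98) of the counts in mutant RT libraries 1 and 3, against 17.7% (17.5 to 17.8) and 13.9% (13.8 to 14.1) in control RT libraries 1 and 3, with 95% Wilson intervals that cover counting error only. The 2 mutant libraries lay below the 2 control libraries, a difference over 2 libraries a group that was not tested. Library 3 of each genotype had a like Acta1 level there, 2423 CPM in the mutant and 2397 CPM in the control, beside those Myh7 shares of 3.90 and 13.9%. Library 1 had 148 CPM in the mutant and 4404 CPM in the control, beside 5.62 and 17.7%. The part of muscle amount in these shares was not tested. In the cold Myh7 took 0 of 2331 counts (a share of up to 0.129%) and 2.20% in mutant libraries 2 and 3, and 1.85%, 0 of 1001 counts (up to 0.300%) and 11.7% in control libraries 1, 2 and 3. There the genotypes overlapped, and control library 3 stood apart from its 2 fellows. Myh2 was uneven as well, at 17.6 and 1.93% in mutant RT libraries 1 and 3 against 11.2 and 5.85% in control RT libraries 1 and 3.

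**Figure D2:**
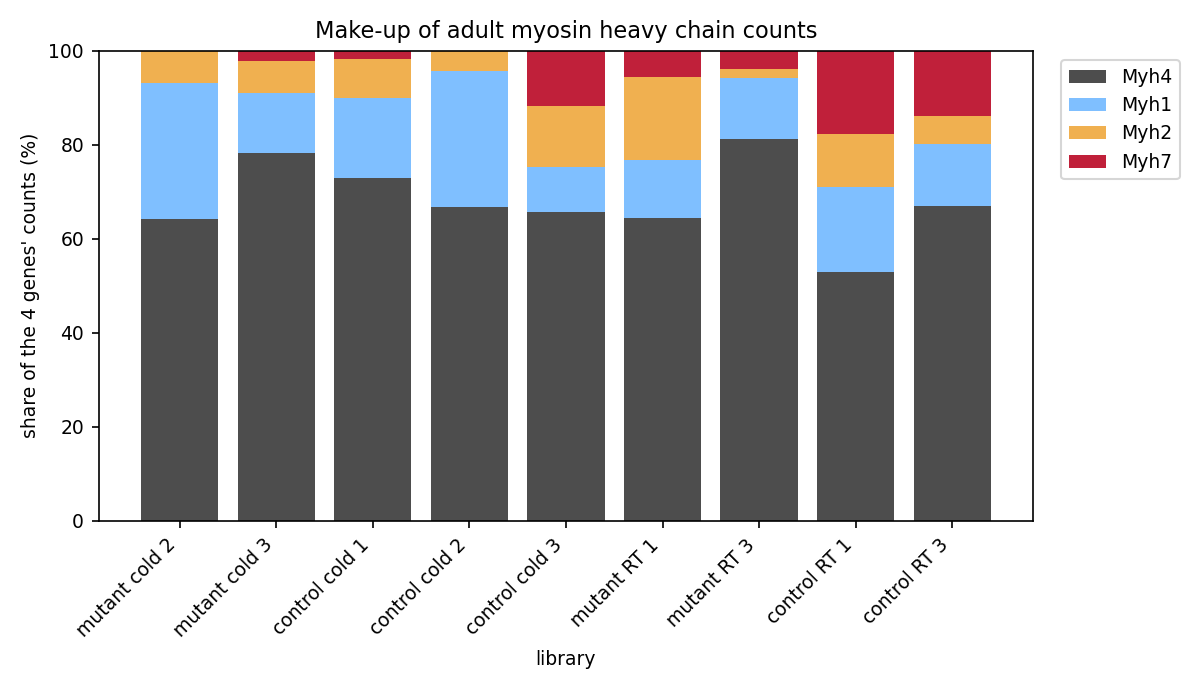
Share of each adult myosin heavy chain gene in the summed counts of all 4, in the 9 libraries with at least 500 such counts. Myh4 (dark) takes 52.9 to 81.2% in every bar, and the slow chain Myh7 (red) exceeds 10% in control RT 1, control RT 3 and control cold 3 alone among these 9.

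The heavy chains share sequence, which limits these shares. Of the 50-base stretches of the longest transcripts, 32.1% of Myh1, 28.9% of Myh2, 18.9% of Myh4 and 28.2% of Myh7 occur in another gene. Myh1 shares 19.7% with Myh2, and Myh4 shares 10.6% with Myh1, so reads could be split among the fast chains. Myh4 shares 0.117% with Myh7, and Myh7 shares most, 22.2%, with the heart chain Myh6, which stayed at 7.21 CPM or below.

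The light chains also come as fast and slow genes. The fast regulatory light chain Mylpf had 0.749, 12.8 and 113 CPM in mutants and 99.0, 5.99 and 299 CPM in controls in the cold, and 39.7, 0.648 and 583 CPM in mutants and 980, 1.56 and 632 CPM in controls at room temperature. Its slow counterpart Myl2 had 0, 0 and 3.96 CPM in mutants and 1.93, 0 and 60.8 CPM in controls in the cold, and 4.48, 0 and 35.9 CPM in mutants and 350, 0 and 167 CPM in controls at room temperature. Myl2 was at 0 in the same number of libraries as Myh7, 5. The slow essential light chain Myl3 had 0.163, 0.905 and 3.35 CPM in mutants and 5.68, 4.18 and 35.7 CPM in controls in the cold, and 4.30, 1.44 and 32.7 CPM in mutants and 252, 0.908 and 115 CPM in controls at room temperature. In the cold the 3 mutant libraries lay below the 3 control libraries for Myl3, with a log2 difference of -3.32 ± 1.95 (edgeR adjusted p = 0.458).

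The fast essential light chain Myl1 behaved differently, since it was never near 0. Myl1 had 50.7, 54.2 and 181 CPM in mutants and 149, 54.9 and 374 CPM in controls in the cold, and 114, 63.5 and 903 CPM in mutants and 991, 83.4 and 749 CPM in controls at room temperature. Mutant RT library 2, with no count of any of the 4 heavy chains, still had 63.5 CPM of Myl1. Of the 50-base stretches of Myl1, 23.4% occur in the pseudogene Mylf-ps, and its reads there cannot be told apart.

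Troponin, the calcium switch of the thin filament, has a fast and a slow gene for each of its subunits. The fast troponin T gene Tnnt3 had 0.163, 23.0 and 310 CPM in mutants and 215, 10.4 and 743 CPM in controls in the cold, and 108, 0.144 and 1503 CPM in mutants and 2219, 0.0726 and 1440.1 CPM in controls at room temperature. The slow troponin T gene Tnnt1 had 0.261, 0.253 and 10.1 CPM in mutants and 5.37, 0.197 and 83.3 CPM in controls in the cold, and 6.34, 0.216 and 75.1 CPM in mutants and 395, 0.291 and 228 CPM in controls at room temperature. Per kilobase, Tnnt1 was below Tnnt3 in each of the 9 libraries with enough heavy chain counts. The fast inhibitory subunit Tnni2 had 0.293, 9.05 and 119 CPM in mutants and 83.6, 2.86 and 276 CPM in controls in the cold, and 39.1, 0.0720 and 580 CPM in mutants and 829, 0.291 and 601 CPM in controls at room temperature. The slow inhibitory subunit Tnni1 had 0, 0 and 4.17 CPM in mutants and 1.31, 0 and 41.0 CPM in controls in the cold, and 2.49, 0 and 24.1 CPM in mutants and 221, 0 and 107 CPM in controls at room temperature. Tnni1, Myl2 and Myh7 were at 0 in 5 libraries each.

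The calcium-binding subunits completed the set. Tnnc2, the fast gene and the most abundant troponin per kilobase, had 0.651, 19.4 and 187 CPM in mutants and 147, 7.27 and 532 CPM in controls in the cold, and 83.4, 0.396 and 1089.7 CPM in mutants and 1579.7, 0.218 and 1239 CPM in controls at room temperature. Over its longest transcript, 55.0% of the 50-base stretches also occur in Ube2c. The slow gene Tnnc1 had 0.847, 1.38 and 2.91 CPM in mutants and 2.20, 0.724 and 38.2 CPM in controls in the cold, and 3.33, 0.576 and 21.3 CPM in mutants and 196, 0.363 and 118 CPM in controls at room temperature. Tnnc1 kept a low floor of 0.363 CPM or more in every library.

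To set slow against fast isoforms within a library, each pair was expressed as CPM per kilobase of the longest coding transcript, slow as a percent of fast. The troponin T ratio, Tnnt1 over Tnnt3, was 1.12 and 3.31% in mutant cold libraries 2 and 3 against 2.55, 1.93 and 11.4% in control cold libraries 1, 2 and 3, and 5.97 and 5.09% in mutant RT libraries 1 and 3 against 18.1 and 16.1% in control RT libraries 1 and 3. The regulatory light chain ratio, Myl2 over Mylpf, was 0 and 3.02% in those mutant cold libraries against 1.68, 0 and 17.5% in the control cold libraries, and 9.71 and 5.30% in mutant RT libraries against 30.7 and 22.7% in control RT libraries. The troponin I ratio, Tnni1 over Tnni2, was 0 and 2.34% in mutant cold libraries against 1.05, 0 and 9.93% in control cold libraries, and 4.26 and 2.78% in mutant RT libraries against 17.8 and 11.9% in control RT libraries. In all 6 pairs of myosin and troponin genes control RT library 1 had the highest ratio of the 9 libraries, and both mutant RT libraries lay below both control RT libraries. These pairs come from the same 4 libraries, and the difference was not tested. In the cold the genotypes overlapped in 5 of the 6 pairs. The essential light chain ratio, Myl3 over Myl1, was 1.93 and 2.14% in mutant libraries against 4.39, 8.79 and 11% in control libraries. Myl1 was near its lowest level, 50.7 CPM, in mutant cold library 2 (54.2 CPM) and control cold library 2 (54.9 CPM). It levelled off at low Acta1, so the ratios of those libraries need not reflect fibre type.

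**Figure D3:**
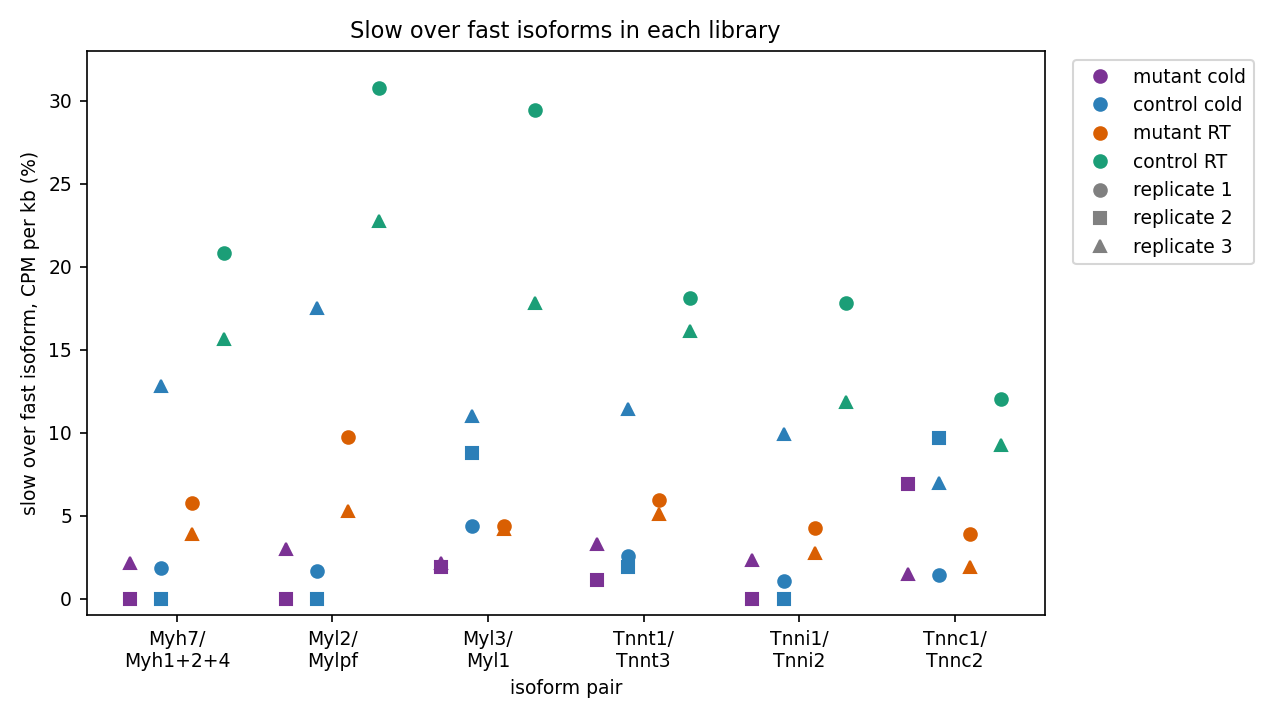
Slow over fast isoform, as a percent of CPM per kilobase, for 6 pairs in the 9 libraries with at least 500 heavy chain counts; colours are groups and shapes are replicate numbers. Control RT libraries 1 and 3 lie above mutant RT libraries 1 and 3 in each pair, and control cold library 3 lies near them in most pairs.

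The slow share was taken over the 7 slow genes and 10 of the 13 fast genes, those of the thick and thin filaments and Actn3, so without Atp2a1, Pvalb and Myoz1. Slow genes made up 2.89 and 3.66% of the level per kilobase in mutant cold libraries 2 and 3 against 2.88, 6.36 and 10.9% in control cold libraries 1, 2 and 3. At room temperature they made up 6.08 and 4.46% in mutant libraries 1 and 3 against 17.4 and 13.4% in control libraries 1 and 3. The 6.36% of control cold library 2 held no Myh7, Myl2 or Tnni1 count, and came with Tnnc1 at 9.66% of Tnnc2 and Myl3 at 8.79% of Myl1. Myl1, which was never near 0, was the largest fast gene in mutant and control cold library 2. It had 50.1 and 50.7 CPM per kilobase there, against 27.7 and 10.4 for Tnnc2, the next. The slow share of these libraries thus depends on Myl1 as well. The slow myosin binding protein gene Mybpc1 is also expressed in fast fibres. Mybpc1 had 0, 4.81 and 99.2 CPM in mutants and 31.5, 1.91 and 200 CPM in controls in the cold, and 25.4, 0.216 and 319 CPM in mutants and 641, 0 and 380 CPM in controls at room temperature. Relative to its fast counterpart Mybpc2 per kilobase, it was 93.5 and 73.5% in mutant cold libraries 2 and 3 against 70.5, 60.7 and 135% in control cold libraries 1, 2 and 3, and 146 and 66.6% in mutant RT libraries 1 and 3 against 188 and 127% in control RT libraries 1 and 3. In this pair, unlike the other 6, the genotypes overlapped at room temperature. Mybpc1 was 3.73 to 6.31% of Acta1 per kilobase over the 9 libraries, a range of 1.69-fold.

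The thin filament gene Acta1, skeletal actin, was used as the yardstick of muscle content. Acta1 had 1.5, 35 and 652 CPM in mutants and 311, 14.5 and 1415 CPM in controls in the cold, and 148, 5.12 and 2423 CPM in mutants and 4404, 2.11 and 2397 CPM in controls at room temperature. Its level differed 303-fold among the 9 libraries. Against that, for 8 of the other 35 genes the highest ratio to Acta1 was less than 2 times the lowest: Ttn, the titin spring (1.45-fold), Tnni2 (1.47-fold), Tnnt3 (1.53-fold), Ckm (1.60-fold), Mybpc1 (1.69-fold), the calcium store protein Casq1 (1.70-fold), the thin filament ruler Neb (1.77-fold) and Tnnc2 (1.96-fold). Another 14 ranged 2-fold to 5-fold, among them Myh4 at 3.47-fold and the calcium release channel Ryr1 at 3.26-fold. Myh2 ranged 6.61-fold and the muscle enolase Eno3 7.26-fold. The widest were 8 genes over 10-fold, namely Tnnc1, Tnnt1, Myl1, Tpm1, Des, Mb, Myl3 and Car3. The 3 slow genes Myh7, Myl2 and Tnni1 were at 0 in some of the 9 libraries.

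Of the calcium handling genes, the fast fibre calcium pump Atp2a1 was the most abundant per kilobase. Atp2a1 had 0.879, 42.0 and 969 CPM in mutants and 311, 21.2 and 1532 CPM in controls in the cold, and 167, 0.756 and 2660.5 CPM in mutants and 3211, 1.23 and 2216 CPM in controls at room temperature. It was 30.3 to 61.9% of Acta1 per kilobase over the 9 libraries. The calcium buffer Pvalb of fast fibres was 19.0 to 57.7% of Acta1, lowest in mutant cold library 3. The titin cap gene Tcap, the most abundant of the Z disc group per kilobase, had 0.130, 6.52 and 41.0 CPM in mutants and 38.9, 1.58 and 185 CPM in controls in the cold, and 35.9, 0.144 and 146 CPM in mutants and 780, 0.145 and 350 CPM in controls at room temperature. Per kilobase Tcap was 36.9 and 9.22% of Acta1 in mutant RT libraries 1 and 3, the highest and the lowest of the 9. The fast Z disc actinin Actn3 was 999% of Actn2 per kilobase in mutant RT library 3, against 170% in control RT library 1, the ends of its range.

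The remaining members spanned the same extremes. Of the filaments, the tropomyosin Tpm2 ranged 10.5 to 1839.9 CPM, the thin filament ruler Neb 0.521 to 420 CPM and the fast myosin binding protein gene Mybpc2 0.0326 to 441 CPM. At the Z disc and along the sarcomere, Actn2 ranged 0 to 321 CPM, Actn3 0.163 to 963 CPM, the spring Ttn 0.0720 to 1099 CPM and the fast fibre calsarcin Myoz1 0.0651 to 207 CPM. The fast fibre genes Mybpc2, Actn3 and Myoz1 were highest in mutant RT library 3, as were Ryr1, Eno3 and Pygm, which both fibre types use. Tpm2, Neb, Actn2 and Ttn were highest in control RT library 1, and so were most fast fibre genes, Atp2a1, Pvalb, Tnnt3 and Mylpf among them. Of the triad, the release channel Ryr1 ranged 0.195 to 578 CPM, the voltage sensor Cacna1s 0 to 166 CPM, the calcium store Casq1 0.472 to 412 CPM and the buffer Pvalb 0 to 1032 CPM. Of the enzymes, creatine kinase Ckm ranged 0 to 2127 CPM, the enolase Eno3 3.61 to 548 CPM and the muscle glycogen phosphorylase Pygm 3.94 to 629 CPM. In all, 11 of the 36 genes were at 0 counts in at least 1 library.

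Apart from Car3, 4 genes had a lowest library above 0.1 times their median library: Myl1, Tnnc1, Tpm1 and Des. Tropomyosin Tpm1, also a gene of smooth muscle and other cells, had 59.2, 64.8 and 174 CPM in mutants and 162, 62.3 and 385 CPM in controls in the cold, and 115, 48.9 and 627 CPM in mutants and 1005, 69.0 and 649 CPM in controls at room temperature. Desmin (Des), the intermediate filament of all muscle types, had 55.6, 49.3 and 196 CPM in mutants and 126, 85.4 and 301 CPM in controls in the cold, and 53.3, 27.6 and 390 CPM in mutants and 545, 90.4 and 460 CPM in controls at room temperature. Each kept a floor, 48.9 CPM for Tpm1 and 27.6 CPM for Des, and was well above it in the libraries with high Acta1. A list of 10 smooth muscle markers summed to 176 to 430 CPM in mutants and 178 to 320 CPM in controls in the cold, and 218 to 297 CPM in mutants and 198 to 344 CPM in controls at room temperature, and its part in those floors was not tested.

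Myoglobin (Mb), the oxygen store of oxidative fibres, fell outside that rule and was chosen after its values were seen. Its lowest library was 0.0771 times its median library, beside 0.0969 for Tpm2, 0.0714 for Eno3 and 0.0701 for Pygm. Mb had 181, 116 and 138 CPM in mutants and 215, 70.3 and 271 CPM in controls in the cold, and 60.3, 22.7 and 224 CPM in mutants and 698, 12.3 and 386 CPM in controls at room temperature. In mutant cold library 1, where Acta1 was 1.5 CPM and Ckm had no count, Mb was 181 CPM; in mutant RT library 2 and control RT library 2, also poor in muscle RNA, it was 22.7 and 12.3 CPM. Cold against room temperature in mutants gave a log2 change of 0.50 ± 1.20 (edgeR adjusted p = 0.819), and 2.21 ± 0.85 (adjusted p = 0.101) once the summed level of Acta1 and Ckm was a term in the fit. Of the 50-base stretches of Mb, 34% also occur in Gm49540.

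**Figure D4:**
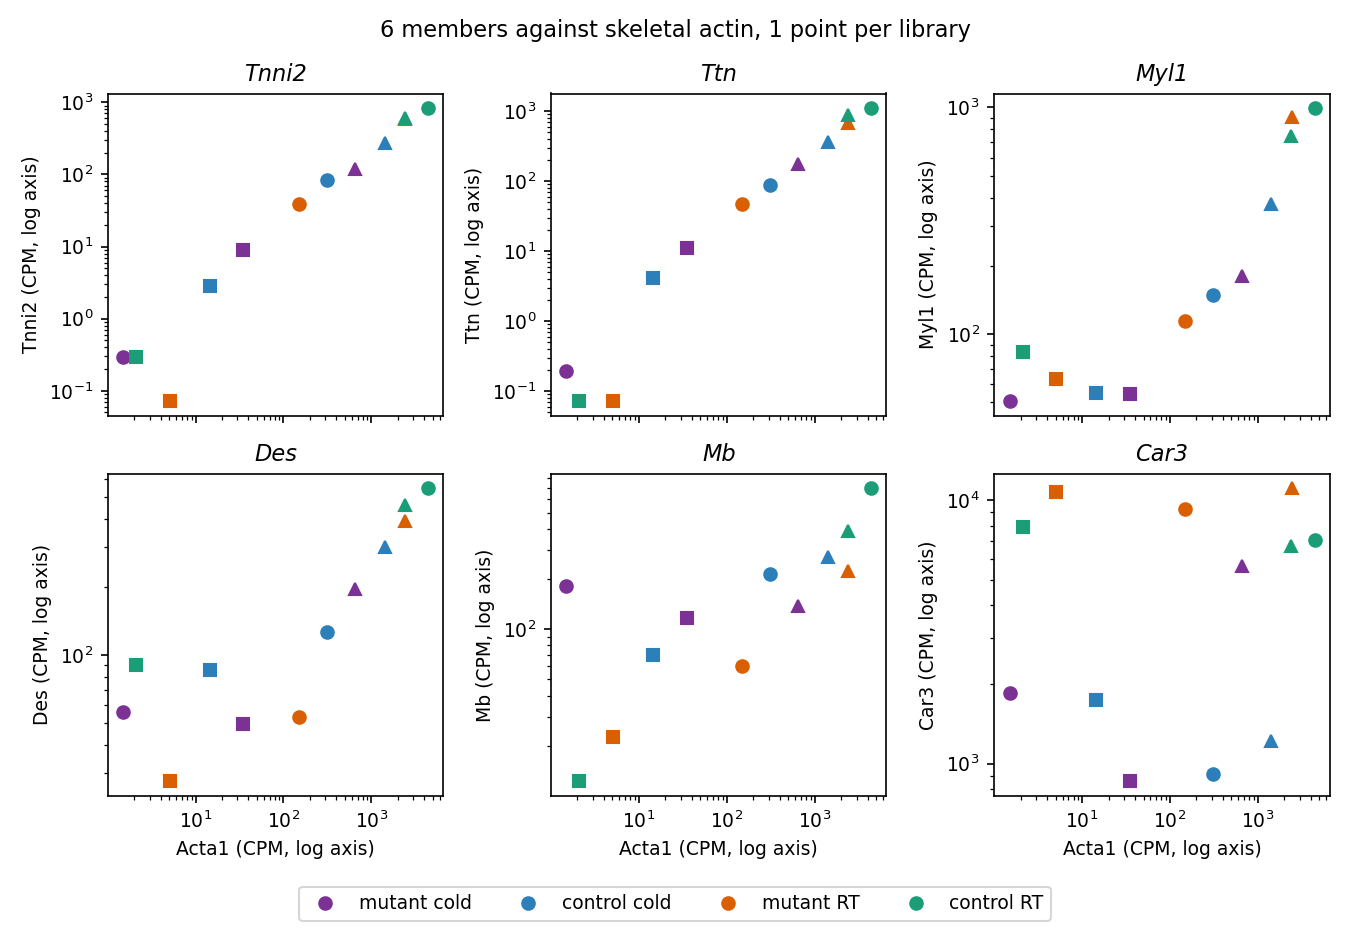
CPM of 6 genes (vertical, log axis) against CPM of Acta1 (horizontal, log axis), 1 point per library; colours are groups, and circles, squares and triangles are replicates 1, 2 and 3. Tnni2 and Ttn follow Acta1 where Acta1 is 14.5 CPM or more, Myl1 and Des level off at low Acta1, and Car3 splits by temperature, with mutant cold library 3 nearest the room temperature libraries.

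Car3, the cytosolic carbonic anhydrase of slow muscle and adipocytes, had the widest range against Acta1 per kilobase, 139-fold over the 9 libraries, of the members with a count in all 9. Car3 had 1855, 857 and 5659 CPM in mutants and 917, 1752 and 1225 CPM in controls in the cold, and 9267, 10718 and 11109 CPM in mutants and 7053, 7942 and 6699 CPM in controls at room temperature. In mutant RT library 2, with no heavy chain count, it reached 10718 CPM. Every cold library lay below every room temperature library of its genotype. Car3 was lower in the cold in controls, at 1298 ± 423 CPM against 7231 ± 641 CPM at room temperature (SD, n = 3 each), a log2 change of -2.48 ± 0.54 (SE) with an adjusted p of 0.0229 by edgeR's quasi-likelihood test, which called 6.62% of all tested genes in that comparison. It was lower in the cold in mutants too, at 2790.4 ± 2534 CPM against 10365 ± 970 CPM at room temperature (SD, n = 3 each), a log2 change of -1.89 ± 0.53 (edgeR adjusted p = 0.0311), where 17.4% of all tested genes were called. Without mutant cold library 3 that change was -2.93 (edgeR adjusted p = 0.000274), and the call was lost without mutant cold library 1 or any of the mutant RT libraries, at edgeR adjusted p of 0.0556 to 0.110. In controls it was lost without control RT library 2 or 3 or any of the control cold libraries, at edgeR adjusted p of 0.0538 to 0.0911. Mutant cold library 3 was also the one with markers of epithelium, at 234 CPM in sum against 2.31 to 21.5 CPM in the others, and their part in its Car3 level was not tested. Adipocyte markers changed with temperature too. Of the 10 brown adipocyte markers, 2 were higher and 1 was lower in the cold in controls, and 3 were higher and 4 lower in mutants (edgeR). Adipoq, the adipokine adiponectin, was lower in the cold in mutants, at 777, 695 and 887 CPM against 1899, 1969 and 1980.2 CPM at room temperature (log2 change -1.31 ± 0.16, edgeR adjusted p = 0.000429). In controls it had 643, 925 and 737 CPM in the cold against 1219, 1374 and 1276 CPM at room temperature (-0.75 ± 0.16, edgeR adjusted p = 0.0211). The 10 markers summed to 21099 to 33490.0 CPM in the cold against 19360.5 to 25613 CPM at room temperature in mutants, and to 29355 to 30515 CPM against 19449 to 20534 CPM in controls; the part of adipocyte content in the Car3 level was not tested. For Car3 at room temperature the 3 mutant libraries lay above the 3 control libraries, with a log2 difference of 0.52 ± 0.51 (edgeR adjusted p = 0.651). In the cold the genotypes overlapped, with a log2 difference of 1.10 ± 0.52 (edgeR adjusted p = 0.342), and the difference between the cold changes of the genotypes was 0.58 ± 0.73 on the log2 scale (edgeR adjusted p = 0.815).

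Across the whole set, few members passed the test, which was run over all 15265 tested genes. Of the 36 genes, 0 were called between mutants and controls at room temperature, where 6.24% of all tested genes were called, and 0 in the cold, where 1.12% were. Car3 was the 1 member called between cold and room temperature in controls, and the 1 called in mutants. In the test of whether the cold change differed between genotypes 0 were called, against 0.478% of all genes. At an unadjusted p below 0.05, edgeR gave 0 members for mutants against controls at room temperature, in the cold and for the interaction, where 20.1, 15.3 and 12.3% of all tested genes had such a p. DESeq2 gave 2, 1 and 0 members in that order, beside 21.7, 17.1 and 13.7% of all genes, and limma-voom gave 4, 0 and 0, beside 33.2, 24.2 and 25.6%.

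The fitted changes of most members were smaller than their standard errors. The estimate was larger than its SE for 8 of the 36 at room temperature and 6 in the cold for mutants against controls, and for 8 in controls and 7 in mutants for cold against room temperature. The median log2 change over the 36 was -1.21 for mutants against controls at room temperature and -1.31 in the cold, and -1.96 for cold against room temperature in controls and -1.92 in mutants, while the median over all tested genes lay between -0.04 and -0.01. In each of the 4 comparisons 35 or 36 members had a negative estimate, beside 54.7, 51.0, 51.3 and 51.1% of all tested genes in the same order. The comparisons share libraries, so these counts are not independent of each other. Most members also rose and fell together between libraries, so the members within 1 count are not independent either. The median SE of a member was 2.64 to 2.70 in these comparisons against 0.23 for all genes. Outside Car3, the smallest adjusted p of a member was 0.388, 0.458, 0.364 and 0.328 in the same order. The slow gene Myl2 had the lowest genotype estimates, with log2 differences of -3.68 ± 2.84 at room temperature (adjusted p = 0.547) and -3.91 ± 2.98 in the cold (adjusted p = 0.571, edgeR). Skeletal actin gave -1.40 ± 2.71 at room temperature (Acta1, edgeR adjusted p = 0.840), and Myh4 gave -0.32 ± 3.19 (edgeR adjusted p = 0.971).

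**Figure D5:**
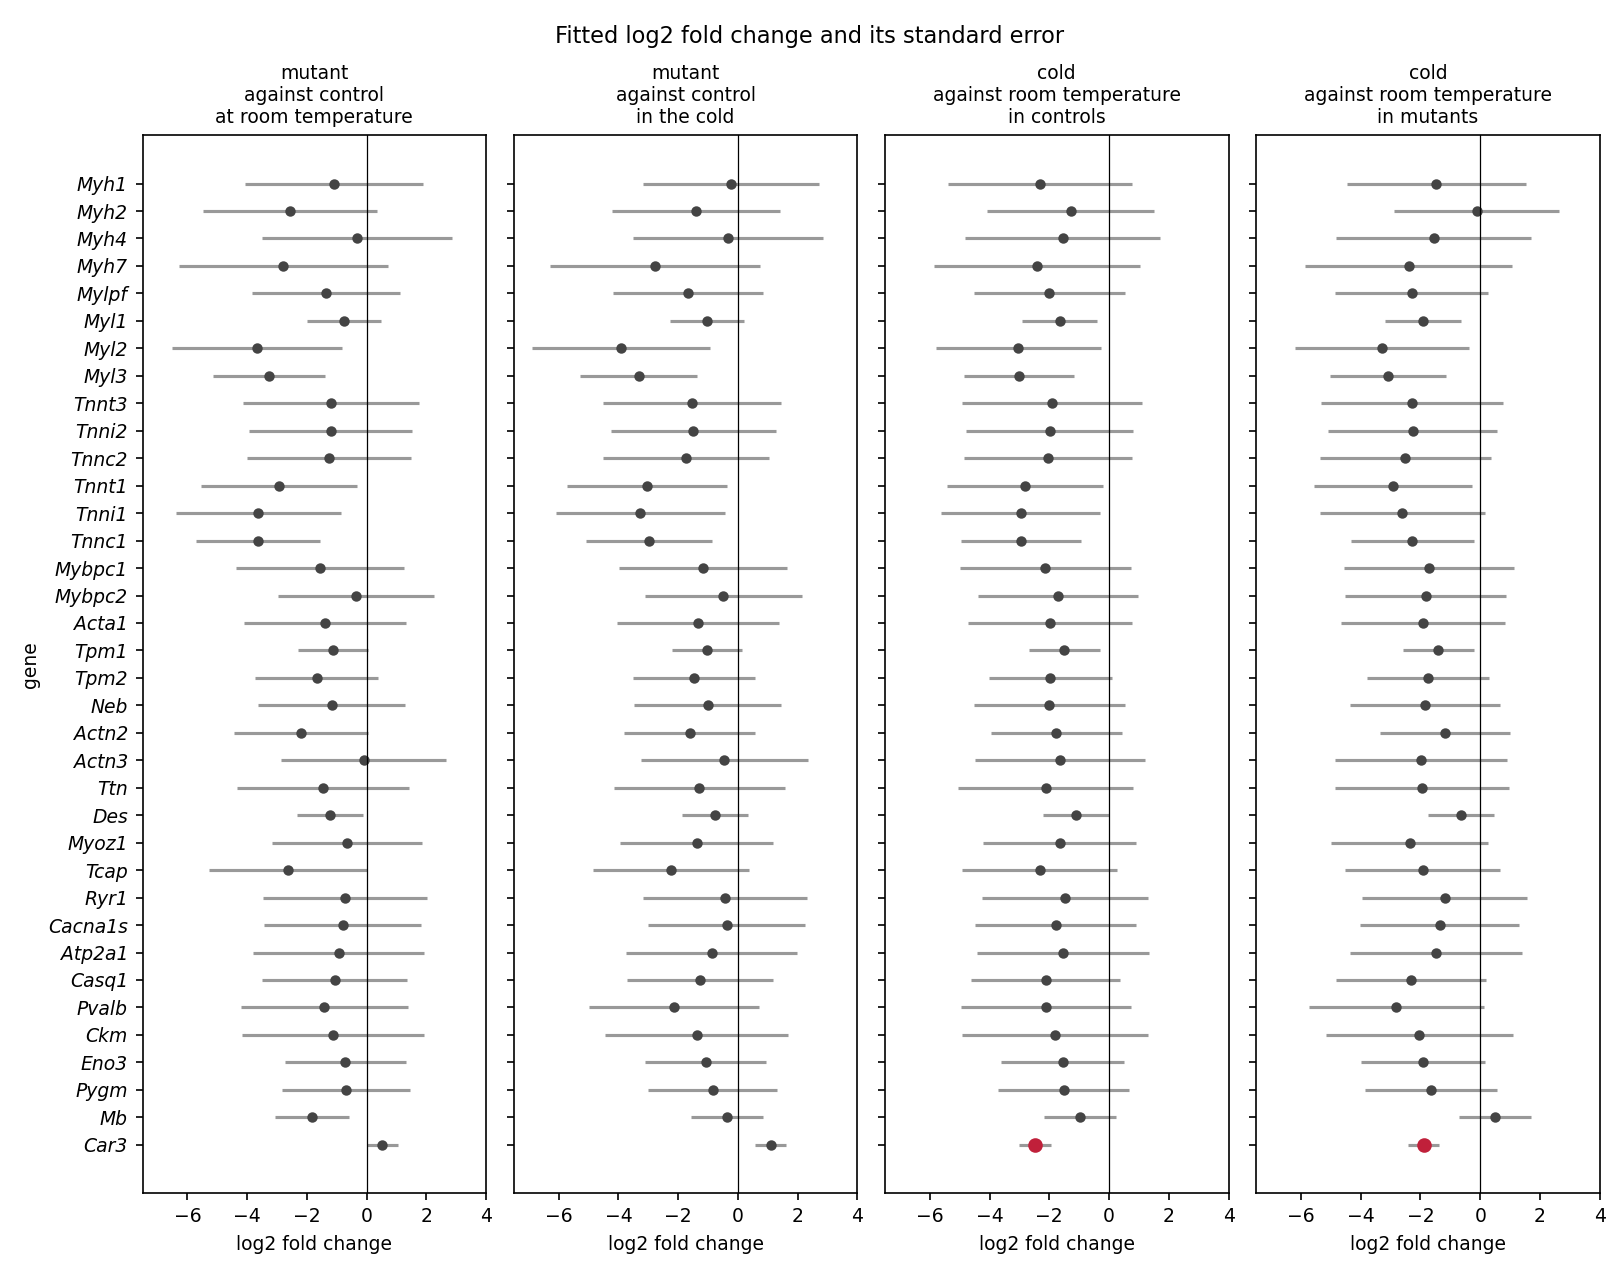
Fitted log2 fold change (points) with its standard error (bars) for each of the 36 genes in 4 comparisons, the first-named group over the second, with called members in red. Car3 in the cold is the sole red point, in 2 panels, and the bars of most other genes span several log2 units.

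With the summed level of Acta1 and Ckm as a term in the fit, the spread of the 35 genes other than Car3 shrank. Their median SE was 0.48 for mutants against controls at room temperature and 0.50 in the cold. Acta1 and Ckm are among the 35, so their own spread was bound to shrink. None of the 35 was called in that edgeR fit, whose term is built from 2 of the members, while 5 had an unadjusted p below 0.05 at room temperature and 1 in the cold, beside 20.8 and 15.9% of all tested genes in the same fit. Their median log2 difference was 0.13 in the cold and -0.18 at room temperature. The nearest to a call at room temperature was Myl3, with a log2 difference of -2.0 ± 0.56 (edgeR adjusted p = 0.0576); in the cold it was -2.39 ± 0.63 (edgeR adjusted p = 0.108).

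Other genes of the fibre gave a like picture. Of 20 further Z disc and M band genes, 0 were called in any of the 5 tests; of these the chaperone Cryab had at least 27.6 CPM in every library. At an unadjusted p below 0.05 edgeR gave 1 gene of that list for cold against room temperature in controls and 1 in mutants, where 23.6 and 30.9% of all tested genes had such a p, and 0 in the other tests. Of 10 tested genes of the nerve-muscle junction and 6 tested developmental myosin and fusion genes, 0 were called in any edgeR test, and 1 of the first list had an unadjusted p below 0.05, for cold against room temperature in mutants. The muscle sodium channel Scn4a reached 75.5 CPM in control RT library 1 and was at 0 in mutant RT library 2, while the muscle chloride channel Clcn1 reached 27 CPM in the same control library. The embryonic light chain Myl4 stayed at 2.44 to 6.40 CPM in all 12 libraries. Heart markers stayed low, with Actc1 at most 9.10 CPM and Myh6 at most 7.21 CPM, and of 4 tested 0 were called (edgeR; 1 had an unadjusted p below 0.05 for mutants against controls in the cold, and 1 for cold against room temperature in controls). Of 9 tested smooth muscle markers 0 were called, and 0 had such a p in any of the 5 edgeR tests; Mylk had 47.8 to 82.1 CPM and Myh11 24.1 to 106 CPM over the 12 libraries.

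The calls among further muscle genes stand beside those of all tested genes. For mutants against controls 6.24% of all genes were called at room temperature and 1.12% in the cold. For cold against room temperature 6.62% were called in controls and 17.4% in mutants. At an unadjusted p below 0.05 edgeR gave 4 of 18 further triad and calcium genes, 4 of 15 further muscle energy genes and 4 of 10 slow fibre genes outside the members for mutants against controls at room temperature, beside 20.1% of all tested genes. Of the 18 triad and calcium genes, 1 was lower in mutants at room temperature: Atp2a2, the slow fibre and housekeeping calcium pump, had 242, 249 and 330 CPM in mutants against 749, 365 and 607 CPM in controls (log2 difference -1.07 ± 0.25, edgeR adjusted p = 0.0247). It is also in the list of 10 slow fibre genes, of which it was the 1 called in that comparison. Of the 18 triad and calcium genes 1 was lower in the cold in mutants, Asph, whose locus also encodes junctin (-1.07 ± 0.29, edgeR adjusted p = 0.0261). Of the 15 muscle energy genes, the muscle isoform of fructose bisphosphatase Fbp2 was lower in mutants at both temperatures. In the cold Fbp2 had 19.9, 15.1 and 10.9 CPM in mutants against 67.1, 57.7 and 73.3 CPM in controls, and 9.75, 6.84 and 8.77 CPM in mutants against 30.5, 12.3 and 21.8 CPM in controls at room temperature, with log2 differences of -2.11 ± 0.30 and -1.35 ± 0.30 (edgeR adjusted p = 0.00855 and 0.0210). The groups did not overlap at either temperature. In the cold in controls 4 of the 15 were higher, Fbp2 (1.61 ± 0.30) and the glycolytic gene Aldoa (1.08 ± 0.19) among them, and in mutants 1 was, the respiratory subunit Cox7a1 (1.96 ± 0.53, edgeR adjusted p = 0.0281). In control cold libraries 1, 2 and 3 Acta1 had 311, 14.5 and 1415 CPM. Fbp2 had 67.1, 57.7 and 73.3 CPM there, Aldoa 6868, 6454 and 8018 CPM, and Cox7a1 1723, 1374 and 1445 CPM. In control RT libraries 1, 2 and 3 Acta1 had 4404, 2.11 and 2397 CPM. Fbp2 had 30.5, 12.3 and 21.8 CPM there, Aldoa 3946, 2942 and 3208 CPM, and Cox7a1 578, 574 and 868 CPM. The part of muscle in the levels of these genes was not tested.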

How the data were processed

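RNA was measured by sequencing in 12 mouse brown fat libraries, 3 in each of 4 groups. Per the submitters' processing notes, reads were aligned with STAR and counted with featureCounts on mm9; strand use and read filters are not stated there. The values the authors deposited are raw counts per gene symbol, with 0 columns left unmapped. From them CPM were computed with TMM factors in edgeR 4.0.16 (R 4.3.3), and 15265 of 24197 genes passed filterByExpr (minimum count 10, minimum total 15).

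Groups were compared with edgeR's quasi-likelihood test over all 12 libraries, called below an adjusted p of 0.05 (Benjamini-Hochberg over all tested genes). Errors of log2 values are SE. Nothing in the labels says that each replicate is another mouse; the p-values then reflect spread among these libraries alone, which may be technical. No 2 libraries of a group agreed within sampling noise (chi-square per degree of freedom 38.0 to 241).

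Levels per kilobase use the longest coding transcript of GENCODE M21; the mean over transcripts was planned, but annotated fragments shorten it (2316 against 6230 bases for Myh7), and it is kept as an alternative. The slow share was planned over all fast members and is given without Atp2a1, Pvalb and Myoz1, with all of them as an alternative. Intervals are 95% Wilson intervals and, like limits for a count of 0 (3 counts), cover counting error only. Promoters are RefSeq's first entry per symbol. Shared 50-base stretches were counted against GENCODE transcripts.

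Values in every library are given for called members, the fast and slow isoform pairs, the most abundant member per kilobase of each role and members whose lowest library exceeds 0.1 times their median. Of other lists, up to 2 called genes a direction, or else the 2 most abundant, were to be named. Some genes of these lists are not reported here. The members and lists were chosen with earlier results of these data known. Alternatives were DESeq2 1.42.0, limma-voom (limma 3.58.1) with quality weights, RLE factors, no low count filter, the compared groups alone, a replicate block, the members left out of totals and factors, log2 of the summed CPM of Acta1 and Ckm plus 0.1 as a covariate, each library left out, other transcript lengths and heavy chains alone. The fit was also run on simulated counts with the same dispersion for every gene. The members here spread far more between libraries, so that run does not bear on them.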

Additional observations from a re-analysis of the deposited data

How the results depend on the processing

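The 0 calls for mutants against controls and for the interaction held under every alternative run, and no other member than Car3 was called in any of them; the smallest adjusted p of the other 35 was 0.0576 for mutants against controls at room temperature and 0.0586 for cold against room temperature in mutants, both with the Acta1 and Ckm covariate. Car3 kept its direction throughout, at -2.78 to -2.28 in controls and -2.93 to -1.49 in mutants (log2). The count of members called in the cold was 0 to 1 in controls and 0 to 1 in mutants when a library was left out, and 0 in mutants with the compared groups alone (edgeR adjusted p of Car3 0.116); fewer samples entered those fits. With the mean transcript length the slow share was 5.0% in mutant cold library 3, 7.57 and 5.96% in mutant RT libraries 1 and 3, and 21.7 and 17.1% in control RT libraries 1 and 3. The set of all 13 fast members was the one first planned, and was added as an alternative after seeing the data. With that set the slow share was 2.95% in mutant cold library 3 and 14.6% in control RT library 1. In the other 7 libraries the slow share moved by less than the spread within the group. With heavy chains alone it was 0% in mutant cold library 2, 2.13% in mutant cold library 3 and 0% in control cold library 2. Whether all replicate numbers pair the libraries depended on the scale, through number 1. For mutants against controls at room temperature the same-number correlations were 0.165, 0.719 and 0.488 on log2 CPM (prior count 1). On log2(CPM + 1) they were 0.0577, 0.781 and 0.504, so that number 1 alone fell below the limit of 0.1. The replicate block was therefore not taken as the design; under it Car3 was the 1 call in each cold comparison (log2 change -2.50 in controls and -2.05 in mutants) and the calls stayed at 0 elsewhere. Depth limits the slow share in libraries with few heavy chain counts.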
